A study of Rattus norvegicus with 24 samples.

Results

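Lysosomal genes were described in primary rat hepatocytes exposed to piperazine designer drugs: the acid hydrolases, their activators, the lysosomal membrane proteins and the subunits of the proton pump. The set held 37 genes named individually, 35 of them with a probe set, and all 20 genes whose symbol starts with Atp6v. Sgsh and Galns, both sulfatases, were named but had no probe set in the platform table, so 55 of 57 genes were measured, out of 14217 genes on the array with a symbol of their own. They comprised 25 hydrolases, 3 activators and lipid-binding proteins, 5 membrane proteins, 2 autophagy proteins, 12 subunits of the V1 sector and 8 of the V0 sector. The cells were kept in a collagen sandwich, a culture between layers of matrix in which hepatocytes hold their liver functions longer, and were exposed for 24 h. The 4 treated groups, of 3 samples each, received 625 µM BZP (benzylpiperazine), 35 µM TFMPP (trifluoromethylphenylpiperazine), 522 µM MeOPP (methoxyphenylpiperazine) or 467 µM MDBP (methylenedioxybenzylpiperazine), which the labels give as the EC20 of each drug, a concentration with an effect of 20 percent. The 12 control samples received 0.1 percent DMSO, and the title of each control names the treated sample it belongs to, which gives 12 pairs. The labels do not say from which animals or cultures the samples came, so every p-value here reflects only how much these samples vary, and that variation may be technical.

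Lysosomes break down proteins, lipids, glycans and nucleic acids that reach them by endocytosis and autophagy. Their hydrolases work at acid pH, which the V-ATPase maintains: its V1 sector in the cytosol splits ATP and drives a rotor that moves protons through the V0 sector in the membrane. In hepatocytes, lysosomes are also the place where lipoproteins taken up from blood release their cholesterol. Many lysosomal genes share an E-box known as the CLEAR motif, bound by TFEB and TFE3.

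Expression is given as the log2 value of the deposited table, and a change as treated minus paired DMSO on that scale, with the standard error (SE) of the linear model. The 24 array medians lay between 4.454 and 4.524, and the median change over all genes was within 0.03 of 0 with every drug. The 12 controls fell into 5 sets of closely alike arrays, called preparations here, and the labels name no such batch. Preparation 1 held pair 1 of every drug, and preparation 2 held pair 2 of BZP, TFMPP and MeOPP. Preparation 3 held only pair 3 of BZP and of MDBP, and preparation 4 only pair 3 of TFMPP and of MeOPP. Preparation 5 was pair 2 of MDBP alone. A difference between preparations can therefore also be one between drugs. Probe sets of hepatocyte markers were bright in every control array, with a list mean between 12.3 and 12.8; in the mean of the drugs 6 of 11 fell and 1 rose, with a median of -0.20. Markers of Kupffer cells and leukocytes were detectable, with a list mean between 4.97 and 6.24 over 18 measured genes, of which 8 lay below a level of 5. In RNA from a whole culture, fewer cells of a type and less RNA per cell cannot be told apart.

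Averaged over the 4 drugs, more lysosomal genes rose than fell. Npc2, a luminal cholesterol carrier of the lysosome, rose most, by 0.68 ± 0.04 (SE, n = 12 pairs, 1.6-fold, adjusted p = 1.85e-08). Atp6v0b, of the proteolipid ring of the pump, rose by 0.62 ± 0.06, Cd63, a tetraspanin of late endosomes, by 0.55 ± 0.05, and Atp6v1f and Atp6v1d, of the central rotor stalk, by 0.50 ± 0.04 and 0.50 ± 0.05. Ctsh, cathepsin H, a cysteine aminopeptidase, fell by 0.63 ± 0.06 (1.54-fold lower; adjusted p = 9.08e-07). Each of these kept its direction in 12 of 12 pairs, where 7.27 percent of all genes were called and higher in every pair and 5.28 percent called and lower in every pair. Of the 55 members, 25 rose, 7 fell and 23 were not called by limma with Benjamini-Hochberg adjustment at 0.05. Over all 14217 genes, 29.9 percent were called, 18 percent higher and 11.9 percent lower, against 45.5 percent higher and 12.7 percent lower among the members. Among genes with a mean level of at least 5, 43.4 percent were called, 27.1 percent higher and 16.3 percent lower, and 50 members lay at that level, including all 32 that were called. The median change over the members was 0.12, against 0.01 over all genes. Both medians lay above 0 in 11 of 12 pairs, so that count does not set the members apart. By pair the median ranged from -0.00068 to 0.26 over the members and from -0.0027 to 0.031 over all genes. Without the pair terms 14 members rose and 1 fell, where 8.57 percent of all genes were called. With 1 value per preparation 19 rose and 6 fell, where 19.2 percent of all genes were called.

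**Figure D1:**
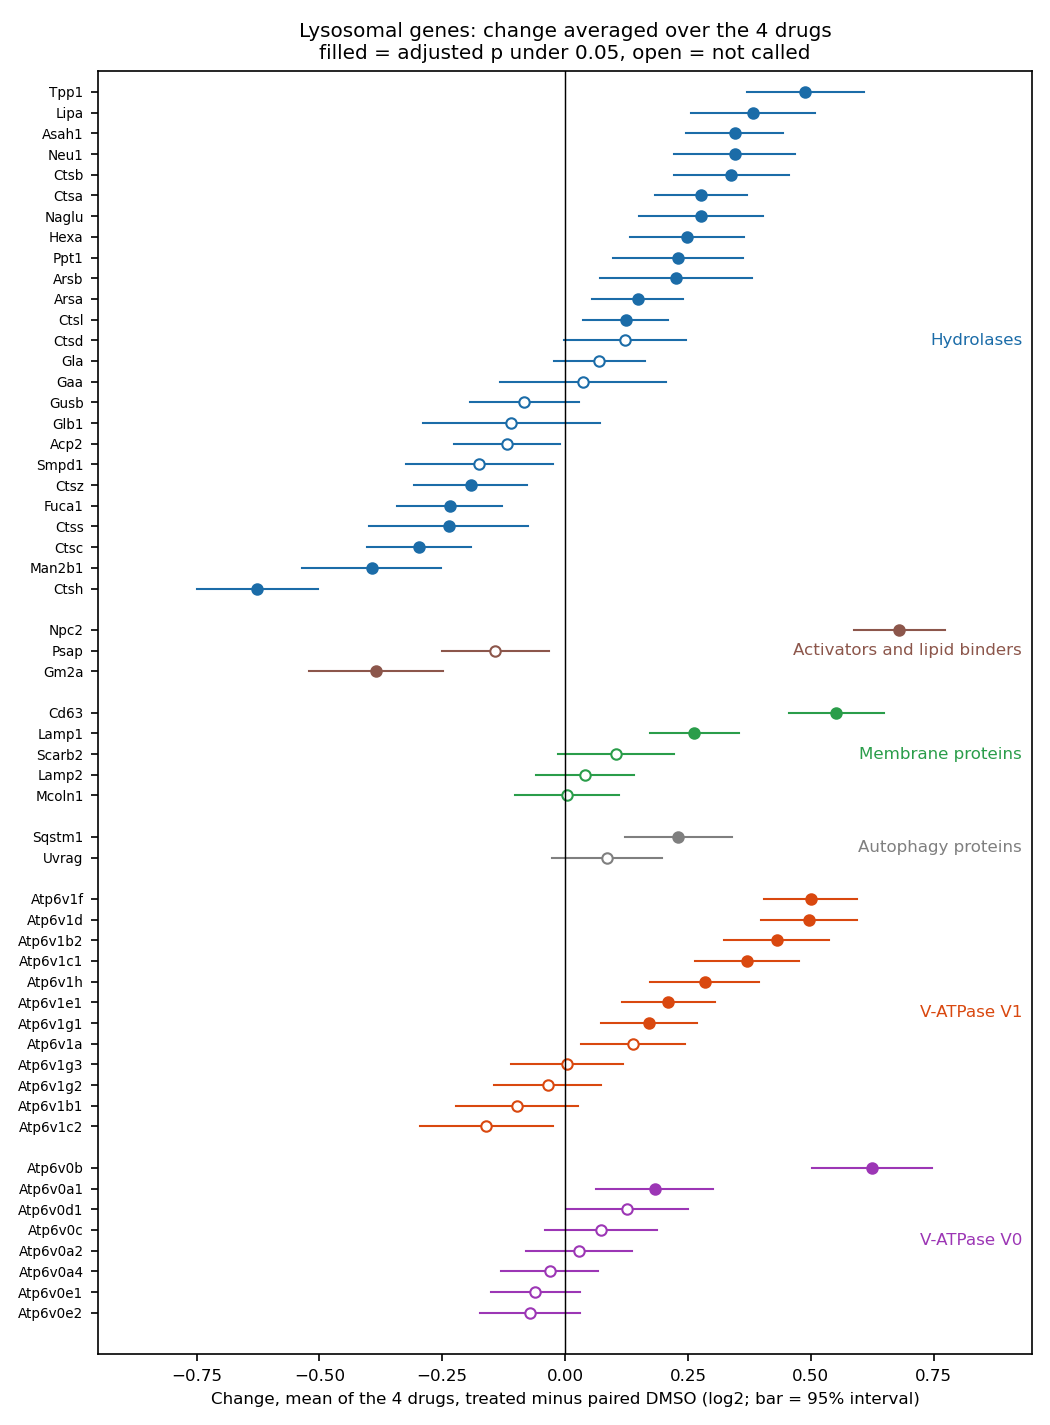
Change of each of the 55 lysosomal genes averaged over the 4 drugs (x axis, log2, treated minus paired DMSO; bars are 95 percent intervals of the linear model, n = 12 pairs), by class. The 25 members that rose and the 7 that fell are filled; Npc2 at 0.68 and Ctsh at -0.63 are the outermost.

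The 9 lysosomal proteases divided in direction, with 4 higher, 4 lower and Ctsd, the main aspartic protease, not called (0.12 ± 0.06; adjusted p = 0.16). Tpp1, which trims tripeptides from protein ends, rose by 0.49 ± 0.06 (SE, n = 12 pairs; 1.4-fold; adjusted p = 8.83e-06). Its paired changes were 0.43, 1.00 and 0.42 with BZP, 0.39, 0.36 and 0.52 with TFMPP, 0.42, 0.48 and 0.46 with MeOPP, and 0.25, 0.61 and 0.52 with MDBP. All 12 lay above 0, and BZP pair 2 stood far above the others. Ctsb, the cysteine protease cathepsin B, rose by 0.34 ± 0.06, and Ctsa, the carboxypeptidase that shields beta-galactosidase and sialidase, by 0.28 ± 0.04, both in 12 of 12 pairs. Ctsl, a cysteine endopeptidase, rose by 0.12 ± 0.04, a call that was lost in 18 of 24 alternative settings (adjusted p = 0.0381, at most 0.18).

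Ctsh stood at 9.49, 9.84 and 10.50 in the controls of BZP and at 8.96, 8.79 and 10.00 with the drug. With TFMPP it went from 9.42, 9.80 and 9.44 to 8.78, 9.46 and 8.98, and with MeOPP from 9.49, 9.65 and 9.43 to 8.80, 8.97 and 8.81. With MDBP it went from 9.43, 9.91 and 10.50 to 8.91, 8.97 and 9.96. Every treated array lay below its own control. The groups overlapped with BZP, TFMPP and MDBP and not with MeOPP, since the controls themselves spanned 9.42 to 10.50, and the controls of pair 3 of BZP and MDBP, which belong to the same preparation, were the highest. Ctsc, dipeptidyl peptidase 1, fell by 0.30 ± 0.05 in 12 of 12 pairs (adjusted p = 0.000351), and its other probe set fell by 0.37 ± 0.04. Ctss, cathepsin S of antigen-presenting cells, fell by 0.24 ± 0.08 in 9 of 12 pairs (adjusted p = 0.0335), and Ctsz, a carboxypeptidase, by 0.19 ± 0.05 in 11 of 12. The call of Ctss was lost in 12 of 24 settings, with the adjusted p as high as 0.744, and among them were the fits without pair 2 of BZP and without pair 2 or 3 of TFMPP, MeOPP or MDBP. Without the pair terms the calls of Ctss (adjusted p = 0.744), Ctsc (0.058) and Ctsz (0.505) were lost, and that of Ctsh was kept (0.0285). The Ctsz call was also lost without preparation 1 (0.116). The Ctss controls ranged from 6.57 to 8.67, with an SD of 0.68, the widest spread of any protease of the set. Beside these 4 falls, the markers of Kupffer cells and leukocytes gave 8 falls among 18 measured genes and 1 rise, of Cd68, with a median of -0.22; their part in the falls of the proteases was not tested. Their list mean was 4.97 to 6.24 in the controls and 4.77 to 6.00 in the treated arrays. Hepatocyte markers gave 6 falls and 1 rise among 11 measured genes, with a median of -0.20. Over all genes 11.9 percent fell, and 16.3 percent of those with a mean level of at least 5.

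Hydrolases of lipids rose in 3 of 4 members. Lipa, the acid lipase that frees cholesterol and fatty acids from lipoproteins, rose by 0.38 ± 0.06 (SE, n = 12 pairs; 1.3-fold; adjusted p = 0.000161). Its change was 0.49 ± 0.12 with BZP, 0.42 ± 0.12 with TFMPP and 0.51 ± 0.12 with MeOPP, against 0.11 ± 0.12 with MDBP, where pair 3 lay at -0.06. BZP pair 3, of the same preparation 3, lay at 0.09, so preparation and drug are mixed in these means. In preparation 1 Lipa changed by 0.55 (BZP), 0.55 (TFMPP), 0.60 (MeOPP) and 0.21 (MDBP). It did not differ among the drugs in the F test of limma (adjusted p = 0.876). Asah1, acid ceramidase, rose by 0.35 ± 0.05 in 12 of 12 pairs, and its other probe set by 0.34 ± 0.05. Ppt1, which removes fatty acyl groups from proteins, rose by 0.23 ± 0.06 (adjusted p = 0.0136), a call lost without the pair terms, with 1 value per preparation and without preparation 1 or 2. Smpd1, acid sphingomyelinase, was not called (-0.17 ± 0.07; adjusted p = 0.0923).

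Of 9 glycosidases, 3 rose, 2 fell and 4 were not called. Neu1, the sialidase, rose by 0.35 ± 0.06 (SE, n = 12 pairs; adjusted p = 0.00034), Naglu, of heparan sulfate breakdown, by 0.28 ± 0.06 and Hexa, a subunit of beta-hexosaminidase, by 0.25 ± 0.05. The other probe set of Neu1 was not called (0.14 ± 0.06; adjusted p = 0.094). Man2b1, lysosomal alpha-mannosidase, fell by 0.39 ± 0.07 in 11 of 12 pairs (adjusted p = 0.000374), with TFMPP pair 3 at 0.09, and Fuca1, the fucosidase, fell by 0.24 ± 0.05 in 12 of 12. Without the pair terms the calls of all these glycosidases were lost: Neu1 (adjusted p = 0.224), Naglu (0.0524), Hexa (0.106), Man2b1 (0.479) and Fuca1 (0.422). The Man2b1 change was -0.75 in preparation 3 (BZP and MDBP pairs) and -0.19 in preparation 4 (TFMPP and MeOPP pairs). Preparation and drug cannot be told apart in those values. The Man2b1 controls ranged from 6.81 to 8.37. Its other probe set, at a mean level of 2.64, was not called (0.04 ± 0.05), and with both averaged the change was -0.18 (adjusted p = 0.00878). Gla, Glb1, Gaa and Gusb lay between -0.11 and 0.07 and were not called, though the other probe set of Gla rose by 0.23 ± 0.05 in 12 of 12 pairs. Both measured sulfatases rose: Arsb by 0.23 ± 0.07 (adjusted p = 0.0342), with paired changes from -0.32 to 0.83, and Arsa by 0.15 ± 0.04 (adjusted p = 0.0215). The Arsb call was lost in 13 of 24 settings and the Arsa call in 7. Acp2, lysosomal acid phosphatase, was not called (-0.12 ± 0.05; adjusted p = 0.114). In all, 12 of 25 hydrolases rose and 6 fell, with a median change of 0.12.

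Activators and lipid-binding proteins moved apart. Npc2 stood at 9.09, 9.67 and 9.58 in the controls of BZP and at 9.86, 10.50 and 10.26 with BZP. With TFMPP it went from 9.00, 9.51 and 9.45 to 9.42, 9.99 and 9.90, and with MeOPP from 9.25, 9.47 and 9.62 to 9.93, 10.38 and 10.22. With MDBP it went from 9.00, 9.05 and 9.46 to 9.76, 9.91 and 10.19. All treated arrays lay above all controls with BZP, MeOPP and MDBP, and the groups overlapped with TFMPP, where each pair still rose. The Npc2 change was 0.52 to 0.86 over the 5 preparations, which do not hold the same drugs. Gm2a, which presents GM2 ganglioside to hexosaminidase, fell by 0.38 ± 0.06 in 11 of 12 pairs (SE, n = 12 pairs, adjusted p = 0.00032). Its call was lost without the pair terms (adjusted p = 0.152). Psap, the precursor of the saposins that activate sphingolipid hydrolases, was not called in the mean (-0.14 ± 0.05; adjusted p = 0.0599). It fell with MDBP, by 0.37 ± 0.10 (n = 3 pairs, adjusted p = 0.0389). It stood at -0.25 ± 0.10 with BZP, 0.02 ± 0.10 with TFMPP and 0.04 ± 0.10 with MeOPP. The MDBP call was not kept in every fit that left out 1 pair of that drug. Psap changed by -0.52 in preparation 3 (BZP and MDBP pairs) and by 0.14 in preparation 4 (TFMPP and MeOPP pairs). Drug and preparation cannot be told apart there. In preparation 1 it changed by -0.15 (BZP), -0.15 (TFMPP), 0.01 (MeOPP) and -0.28 (MDBP).

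**Figure D2:**
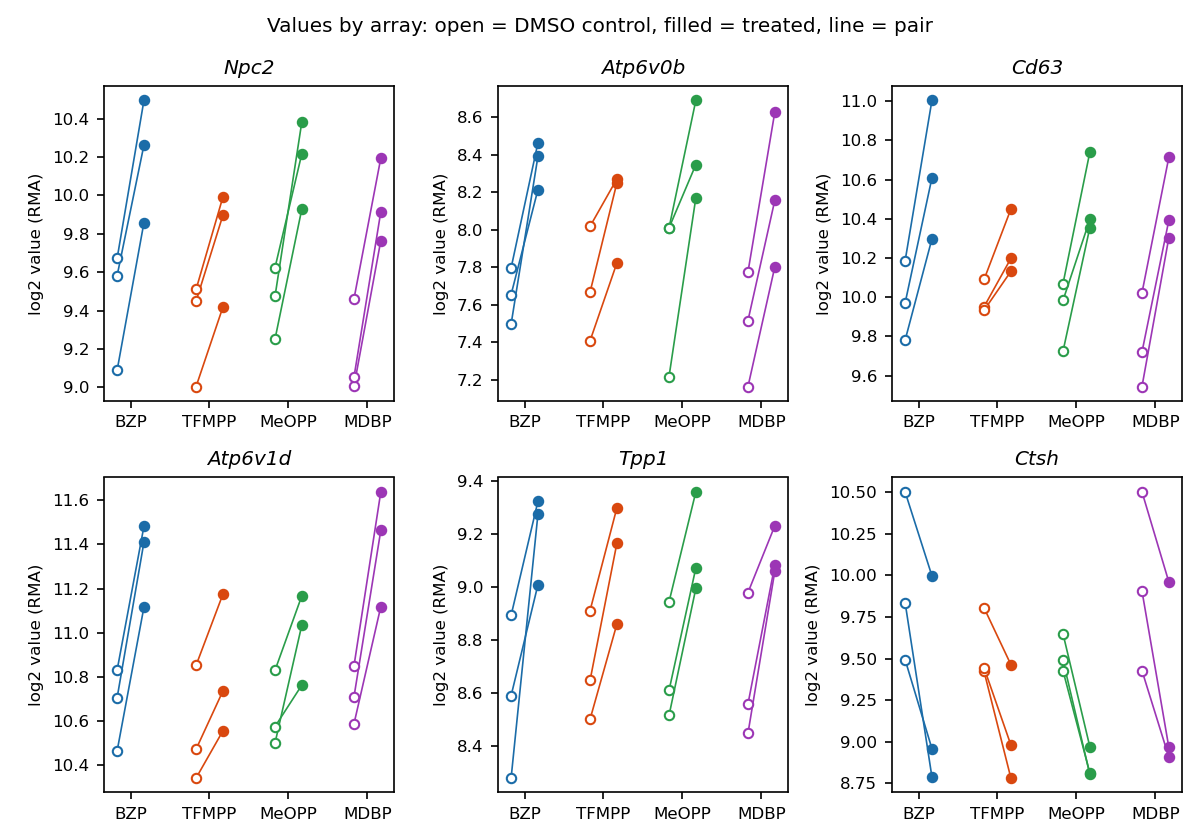
Log2 value (y axis) of 6 lysosomal genes on each of the 24 arrays, by drug; open points are DMSO controls, filled points treated samples, and a line joins each pair. Npc2, Atp6v0b, Cd63, Atp6v1d and Tpp1 rise and Ctsh falls in 12 of 12 pairs.

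Among the 5 membrane proteins, Cd63 and Lamp1 rose and the other 3 were not called. Cd63 changed by 0.64, 0.82 and 0.52 with BZP, 0.25, 0.36 and 0.20 with TFMPP, 0.63, 0.67 and 0.41 with MeOPP, and 0.67, 0.69 and 0.76 with MDBP. All treated arrays lay above all controls of the same drug. Lamp1, a heavily glycosylated protein that lines the lysosomal membrane, rose by 0.26 ± 0.04 in 12 of 12 pairs (SE; 1.2-fold; adjusted p = 0.000253). Its 2 other probe sets, both below a level of 5, were not called (0.13 ± 0.06 and -0.02 ± 0.05), and with the 3 averaged the change was 0.13 (adjusted p = 0.0366). Lamp2, its relative that also serves chaperone-mediated autophagy, stood at 0.04 ± 0.05 (95 percent interval -0.06 to 0.14). Its other probe set rose by 0.17 ± 0.05 (adjusted p = 0.0156). Scarb2, the receptor that brings glucocerebrosidase to lysosomes, stood at 0.10 ± 0.06 and Mcoln1, the calcium release channel TRPML1, at 0.0037 ± 0.05 (95 percent interval -0.10 to 0.11). The median of the 5 was 0.10.

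The E-box core CACGTG was searched for on both strands in RefSeq promoter windows of build GRCr8, from 250 bases before to 50 after each gene's start; 44 of 55 members had a window. It was found in 8 of these windows, or 18.2 percent, against 6.42 percent of 33469 windows in the table. The longer form TCACGTGA, which contains the core, was in 5 members (11.4 percent, against 0.777 percent of all windows). The 8 genes were Lamp1, Cd63, Mcoln1, Ctsd, Glb1, Gaa, Atp6v0d1 and Atp6v0e1. Lamp1 and Cd63 rose and the other 6 were not called; the core was in 2 of 16 members that rose, 0 of 7 that fell and 6 of 21 that were not called. The median change was 0.08 in the 8 members with a match and 0.07 in the 36 without. A match is a run of letters and not a measured binding site. The Lamp1 window held 5 matches, a number reached by 1 window of the whole table. The 200 bases before the start are shown for 2 members that rose and 2 that were not called, with each CACGTG in capitals. They lie at chr16:83075064-83075263 on the minus strand for Lamp1, chr7:1921944-1922143 on the plus strand for Cd63, chr12:6358058-6358257 on the plus strand for Mcoln1 and chr19:50357249-50357448 on the minus strand for Atp6v0d1.
Lamp1: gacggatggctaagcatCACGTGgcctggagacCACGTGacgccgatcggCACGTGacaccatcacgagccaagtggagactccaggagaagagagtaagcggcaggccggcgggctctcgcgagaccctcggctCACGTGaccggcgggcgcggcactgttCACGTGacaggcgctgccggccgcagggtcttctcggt
Cd63: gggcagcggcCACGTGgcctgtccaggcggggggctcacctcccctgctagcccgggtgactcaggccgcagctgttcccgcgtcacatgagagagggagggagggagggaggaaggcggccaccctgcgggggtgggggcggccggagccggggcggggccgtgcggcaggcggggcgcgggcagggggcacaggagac
Mcoln1: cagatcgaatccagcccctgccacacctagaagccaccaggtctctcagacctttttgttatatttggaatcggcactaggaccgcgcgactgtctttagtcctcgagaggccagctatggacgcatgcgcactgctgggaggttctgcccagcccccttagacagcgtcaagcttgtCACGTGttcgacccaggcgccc
Atp6v0d1: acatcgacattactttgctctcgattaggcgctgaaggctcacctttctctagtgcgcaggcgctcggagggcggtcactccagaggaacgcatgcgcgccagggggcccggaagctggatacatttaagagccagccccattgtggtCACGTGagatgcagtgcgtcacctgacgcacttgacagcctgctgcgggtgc
Counted from the gene's start, the match of Cd63 lies at -190, that of Atp6v0d1 at -52 and those of Mcoln1 at -22 and 5, the last outside the bases shown.

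Of the autophagy proteins, Sqstm1 (p62), the receptor that ties ubiquitinated cargo to the autophagosome, rose by 0.23 ± 0.05 in 12 of 12 pairs (SE; adjusted p = 0.00317). Its call was lost without the pair terms (adjusted p = 0.129 there). A further bright probe set of Sqstm1 rose by 0.29 ± 0.05, in 8 of 12 pairs, and 2 dim ones were not called. Uvrag, a partner of Beclin 1 in endosome maturation, stood at 0.09 ± 0.05 (adjusted p = 0.292).

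Subunits of the V1 sector rose in 7 of 12 members and fell in 0; at an unadjusted p under 0.05 the count of falls was 1, Atp6v1c2. The 7 that rose were Atp6v1f, Atp6v1d, Atp6v1b2, Atp6v1c1, Atp6v1h, Atp6v1e1 and Atp6v1g1. They cover the B subunit of the ATP-splitting ring, the rotor stalk (d and f), the peripheral stalks (c1, e1 and g1) and the regulatory H subunit. Atp6v1d stood at 10.83, 10.46 and 10.70 in the controls of BZP and at 11.48, 11.12 and 11.41 with BZP. With TFMPP it went from 10.85, 10.34 and 10.47 to 11.17, 10.55 and 10.74, and with MeOPP from 10.83, 10.50 and 10.57 to 11.17, 11.04 and 10.76. With MDBP it went from 10.85, 10.59 and 10.71 to 11.64, 11.12 and 11.46. All treated arrays lay above all controls with BZP and MDBP, and the groups overlapped with TFMPP and MeOPP. Atp6v1b2, the widely expressed B2 isoform, rose by 0.43 ± 0.05 (SE, n = 12 pairs; 1.35-fold; adjusted p = 1.02e-05), and its other probe set by 0.57 ± 0.05. Atp6v1c1, which helps join V1 to V0, rose by 0.37 ± 0.05, Atp6v1h by 0.28 ± 0.05, Atp6v1e1 by 0.21 ± 0.04 and Atp6v1g1 by 0.17 ± 0.05. The Atp6v1g1 call was lost without the pair terms (adjusted p = 0.212), with 1 value per preparation (0.111) and without preparation 1 (0.226), and the Atp6v1e1 call without the pair terms (0.0597). Atp6v1a, the catalytic subunit, was not called at 0.14 ± 0.05 (adjusted p = 0.0588), while its dimmer probe set rose by 0.19 ± 0.06 (adjusted p = 0.0317).

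The 4 remaining V1 genes are isoforms known from other organs: Atp6v1b1 from kidney and inner ear, Atp6v1c2 from lung and kidney, Atp6v1g2 from neurons and Atp6v1g3 from kidney. Their control means lay between 2.59 and 3.86, under the level of 5, and their changes between -0.16 and 0.0042. Without them, 7 of 8 V1 subunits rose and the median change was 0.33, against 0.19 with them and 0.05 over all genes at that level. The median of the 8 lay between 0.17 and 0.50 in the 5 preparations, which do not hold the same drugs. It lay above 0 in 12 of 12 pairs, and the median of all genes at that level in 11 of 12.

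Of the V0 sector, which spans the membrane, 2 of 8 subunits rose and 0 fell, and no fall reached an unadjusted p under 0.05. The share that rose was 25 percent, beside 18 percent of all genes. At a mean level of at least 5 it was 28.6 percent, beside 27.1 percent of all genes. Atp6v0b changed by 0.67, 0.90 and 0.56 with BZP, 0.58, 0.42 and 0.25 with TFMPP, 0.68, 0.95 and 0.34 with MeOPP, and 0.85, 0.64 and 0.64 with MDBP. Every pair rose, and its dimmer probe set rose by 0.60 ± 0.06 too. Atp6v0a1, an isoform of the subunit that forms the proton half-channels, rose by 0.18 ± 0.06 (SE, n = 12 pairs; adjusted p = 0.0266), a call lost in 11 of 24 settings. Atp6v0c, the main subunit of the same proteolipid ring as Atp6v0b, was not called (0.07 ± 0.05; 95 percent interval -0.04 to 0.19). Nor were Atp6v0d1, which links the ring to the stalk (0.13 ± 0.06), Atp6v0a2, known from the Golgi (0.03 ± 0.05), and the small subunits Atp6v0e1 (-0.06 ± 0.04) and Atp6v0e2 (-0.07 ± 0.05). Atp6v0a4, a kidney isoform, lay at a control mean of 3.32. The V0 median was 0.05, and 0.07 without Atp6v0a4. Without preparation 2 the V0 median was 0.0037.

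Set side by side, 12 of 25 hydrolases rose and 6 fell (48 and 24 percent), and 2 of 5 membrane proteins rose (40 percent). Of the pump, 7 of 12 V1 subunits (58.3 percent) and 2 of 8 V0 subunits (25 percent) rose. Over all genes 18 percent rose and 11.9 percent fell. Among all genes with a mean level of at least 5 it was 27.1 and 16.3 percent. The V0 share higher at that level was 28.6 percent, near that of all genes. The class medians by pair ranged from -0.05 to 0.40 for hydrolases, from -0.06 to 0.41 for membrane proteins, from 0.07 to 0.34 for V1 and from -0.11 to 0.24 for V0. They were above 0 in 11, 11, 12 and 11 of 12 pairs, and the median of all genes was above 0 in 11 of 12. That median ranged from -0.0027 to 0.031 by pair. BZP pair 2 gave the highest median of the hydrolases, membrane proteins and V0 and BZP pair 3 the lowest of the hydrolases and V0. Without BZP pair 2 the hydrolase median was 0.08 and the membrane median 0.06. These medians describe the classes, and no difference between classes was tested.

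**Figure D3:**
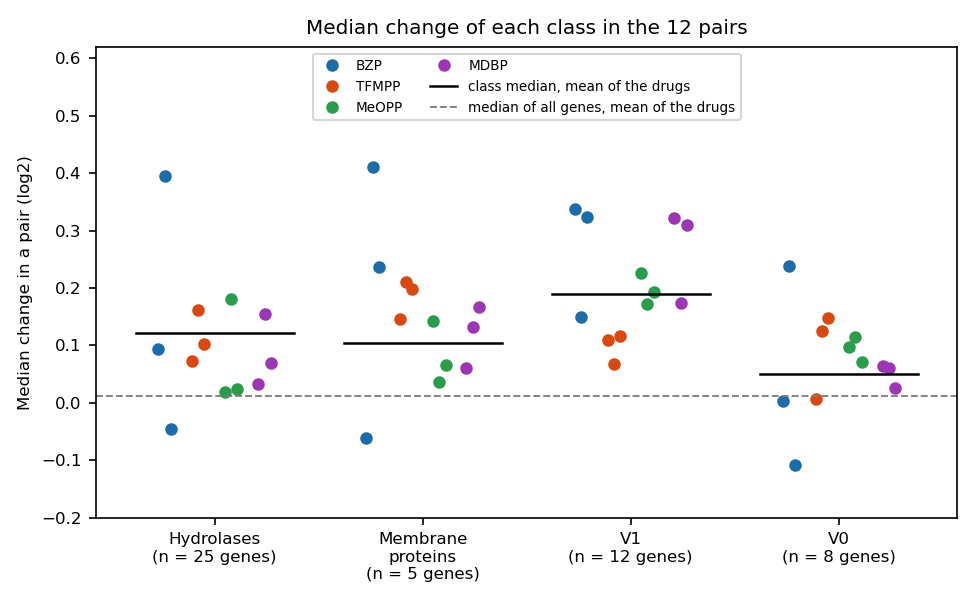
Median change (y axis, log2) over the members of each class in each of the 12 pairs, coloured by drug; the black line is the class median in the mean of the drugs (0.12, 0.10, 0.19 and 0.05) and the dashed line the median of all genes (0.01). The V1 points lie above 0 in all 12 pairs.

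**Figure D4:**
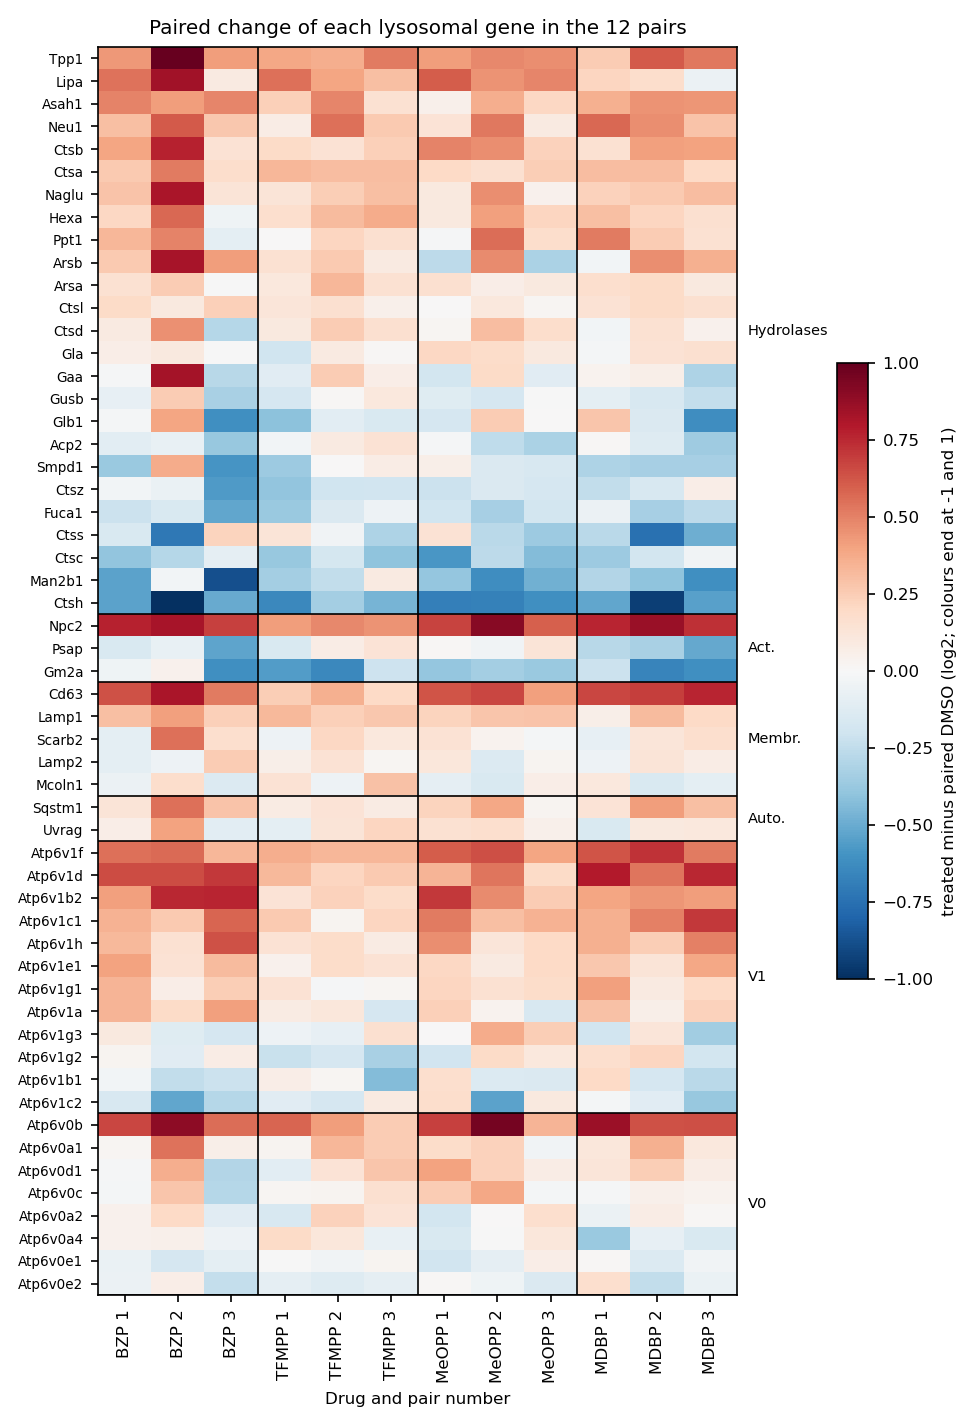
Paired change of the 55 lysosomal genes (rows, by class) in the 12 pairs (columns, by drug), as treated minus DMSO on the log2 scale. Red is higher and blue lower; Npc2, Cd63, Atp6v1f, Atp6v1d and Atp6v0b are red and Ctsh is blue in every column.

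By drug, the same fit called 17 members higher and 2 lower with BZP, 1 and 1 with TFMPP, 10 and 3 with MeOPP, and 11 and 3 with MDBP. Over all genes, 12.6 percent were called with BZP (6.66 percent higher, 5.96 percent lower) and 2.58 percent with TFMPP (0.872 percent higher, 1.71 percent lower). With MeOPP it was 7.98 percent (3.45 percent higher, 4.52 percent lower) and with MDBP 9.73 percent (4.68 percent higher, 5.05 percent lower). The share of members called lower was near that of all genes with each drug, and the share called higher was 30.9 percent with BZP, 1.82 percent with TFMPP, 18.2 percent with MeOPP and 20 percent with MDBP. Npc2 rose and Ctsh fell with all 4 drugs. Another 7 members rose with BZP, MeOPP and MDBP alike: Tpp1, Cd63, Atp6v1b2, Atp6v1c1, Atp6v1d, Atp6v1f and Atp6v0b. The share of all genes called with the same drugs together was not counted, so these overlaps are a description only. The largest rises with BZP were those of Npc2 (0.76 ± 0.09; SE, n = 3 pairs; adjusted p = 5.02e-05) and Atp6v0b (0.71 ± 0.11), and the falls those of Ctsh (-0.70 ± 0.12) and Man2b1 (-0.48 ± 0.13). With TFMPP, Npc2 rose by 0.45 ± 0.09 (adjusted p = 0.0143) and Ctsh fell by 0.48 ± 0.12 (adjusted p = 0.0458). With MeOPP, Npc2 rose by 0.73 ± 0.09 and Atp6v0b by 0.66 ± 0.11, while Ctsh fell by 0.66 ± 0.12, Man2b1 by 0.50 ± 0.13 and Ctsc by 0.43 ± 0.10. With MDBP, Npc2 rose by 0.79 ± 0.09 and Atp6v0b by 0.71 ± 0.11, while Ctsh fell by 0.67 ± 0.12 and Gm2a by 0.50 ± 0.13. These calls rest on 3 pairs a drug. When each of a drug's own pairs was left out in turn, 11, 13 and 13 of 55 members were called with BZP and 0 with TFMPP each time. It was 5, 6 and 7 of 55 with MeOPP, and 10, 7 and 6 of 55 with MDBP. In the same fits 11, 8.88 and 6.76 percent of all genes were called with BZP, 0.661, 0.964 and 0.809 percent with TFMPP, 3.4, 3.49 and 5.34 percent with MeOPP, and 7.23, 4.29 and 3.76 percent with MDBP. Ctsh, Npc2, Cd63, Atp6v1f and Atp6v0b were called in every such fit of BZP, MeOPP and MDBP. Without the pair terms 0 members were called with any single drug, but only 24, 1, 9 and 21 of 14217 genes were called with BZP, TFMPP, MeOPP and MDBP, so nothing about the members can be read from that count. In those fits 19, 6, 11 and 12 members had an unadjusted p under 0.05, or 34.5, 10.9, 20 and 21.8 percent, beside 10.4, 3.19, 7.86 and 9.07 percent of all genes.

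**Figure D5:**
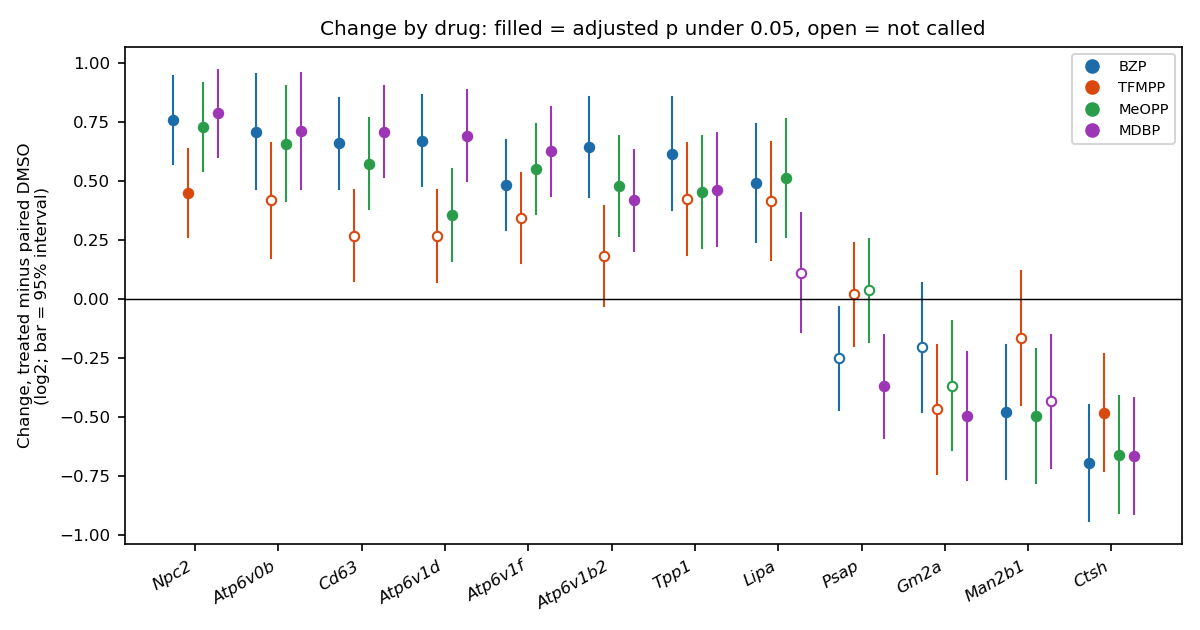
Change of 12 lysosomal genes by drug (y axis, log2, treated minus paired DMSO; bars are 95 percent intervals, n = 3 pairs), filled where the adjusted p was under 0.05. TFMPP lies lowest for Npc2, Atp6v0b, Cd63, Atp6v1d, Atp6v1f, Atp6v1b2 and Tpp1, but no difference between drugs was called.

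The 4 drugs were given at different concentrations, so their values are set side by side. No member differed among the drugs in the F test of limma with Benjamini-Hochberg adjustment (0 of 55 called, 4 at an unadjusted p under 0.05), and no gene of the array did (0 of 14217, or 0 percent; 6.36 percent at an unadjusted p under 0.05). In the 6 differences between drugs, adjusted over all probe sets and all 6 together, 0 members and 0 percent of all genes were called. At an unadjusted p under 0.05 the difference of BZP gave 5 of 55 members against TFMPP, 2 of 55 against MeOPP and 1 of 55 against MDBP. Over all genes it was 1053, 971 and 462 of 14217, or 7.41, 6.83 and 3.25 percent. TFMPP differed so from MeOPP in 2 of 55 members and from MDBP in 6 of 55, and MeOPP from MDBP in 4 of 55. Over all genes it was 780, 1009 and 629 of 14217, or 5.49, 7.1 and 4.42 percent. The smallest F test p among the members was that of Atp6v1d (0.00806, adjusted p = 0.704). Atp6v1d changed by 0.67 with BZP and 0.69 with MDBP, the benzylpiperazines, and by 0.27 with TFMPP and 0.35 with MeOPP, the phenylpiperazines. It changed by 0.73 in preparation 3, which holds only BZP and MDBP pairs, and by 0.23 in preparation 4, which holds only TFMPP and MeOPP pairs. Drug and preparation cannot be told apart there. In preparation 1, with pair 1 of every drug, Atp6v1d changed by 0.65 (BZP), 0.79 (MDBP), 0.32 (TFMPP) and 0.34 (MeOPP). In preparation 2, which lacks MDBP, it changed by 0.65 (BZP), 0.54 (MeOPP) and 0.21 (TFMPP), so MeOPP lay nearer to BZP there. With MDBP pair 2, alone in preparation 5, it changed by 0.53. Its difference between BZP and TFMPP was 0.40 (95 percent interval 0.13 to 0.68; adjusted p = 0.778). Cd63 changed by 0.27 with TFMPP and 0.71 with MDBP, a difference of -0.44 (95 percent interval -0.71 to -0.17; adjusted p = 0.734). Psap differed by 0.41 between MeOPP and MDBP (95 percent interval 0.10 to 0.72; adjusted p = 0.818). The 95 percent interval of a difference, which is not adjusted, reached 0.31 to either side in the median member. Differences of that size could not be told from none, and after adjustment larger ones were not called either. TFMPP gave the smallest rise of the 4 drugs in 14 of the 25 members that rose in the mean (56 percent), against 57.9 percent of all genes that rose.

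Other lysosomal genes, sorting genes, regulators and autophagy genes were counted as lists in the mean of the drugs. All genes at a level of at least 5 rose more often than they fell too (27.1 percent higher, 16.3 percent lower, median 0.05), so the counts are given as a description. The lists were also chosen with earlier results of these data known, which limits the counts further. Of 32 measured further lysosomal proteins, 15 rose and 1, Ctse, fell, with a median of 0.10. Gpnmb had the largest rise of that list, 2.30 ± 0.09. The accessory pump subunits Atp6ap1 and Atp6ap2 rose by 0.27 ± 0.05 and 0.29 ± 0.06, Pla2g15, a lysosomal phospholipase, by 0.59 ± 0.07, and Lgmn, the asparaginyl protease legumain, by 0.40 ± 0.05 (SE, n = 12 pairs). Of 23 genes that sort proteins to lysosomes, 11 rose and 0 fell, with a median of 0.16; at an unadjusted p under 0.05 Lyst alone was lower. Gga2, an adaptor that takes mannose 6-phosphate receptors out of the Golgi, rose by 0.62 ± 0.06, Gnptab, which makes the mannose 6-phosphate tag, by 0.33 ± 0.06, and the receptor M6pr by 0.17 ± 0.05. Of 20 regulators of lysosomal genes, 9 rose and 1, Ppargc1a, fell, with a median of 0.08. The largest rises among the regulators were those of Rragd (1.78 ± 0.12) and Flcn (0.81 ± 0.06). Tfe3 rose by 0.26 ± 0.06 in 12 of 12 pairs, while Tfeb stood at -0.14 ± 0.06 (adjusted p = 0.0773) and Mitf at 0.07 ± 0.09. Of 28 autophagy genes, 10 rose and 3 fell, with a median of 0.08, among them Tecpr1, a tether of autophagosomes to lysosomes, at 0.60 ± 0.06, Gabarapl1 at 0.31 ± 0.06 and Optn, a cargo receptor, at -0.21 ± 0.05.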

How the data were processed

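Each of the 24 samples was hybridised to 1 Affymetrix rat array. The values are log2 intensities that the authors deposited after RMA, which corrects background, quantile-normalizes and summarizes probes, per the submitters' processing notes; no version of it is named there. RMA makes array distributions alike, so a shift shared by most genes would not show. Of 31099 probe sets, 57 controls were left out and 31042 tested; 20826 had 1 symbol, 436 several and 9780 none. A gene took its probe set with the highest mean.

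A linear model with 12 pair terms and 4 drug terms was fitted with limma 3.58.1 (R 4.3.3) and moderated tests, two-sided, with Benjamini-Hochberg adjustment over all probe sets; a call is an adjusted p under 0.05. The pairs come from the control titles. Paired arrays deviated together from their group means in 12 of 12 pairs, with correlations from 0.612 to 0.802. Control arrays correlating above 0.993 were taken as 1 preparation, which gave 5; no arrays held identical values. The script was tested on simulated data.

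Values are given in full for the largest called changes moving alike in 12 of 12 pairs, the largest called change of each class and direction, the 2 largest called rises and falls of each drug, and the smallest p of the F test. Other members were described by class, and genes of the context lists were picked after their values were seen. The members and lists were chosen with earlier results of these data known. Promoters were read from a RefSeq table of build GRCr8. Alternatives left out the pair terms, pairs or preparations, fitted single drugs, averaged probe sets, filtered dim ones, or changed normalization and moderation. The number of arrays limits the precision.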

Additional observations from a re-analysis of the deposited data

How the results depend on the processing

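Over 24 alternative settings for the mean of the drugs, 15 of the 32 called members kept their call in every setting, 17 lost it in at least 1 and 0 changed sign. Leaving out 1 pair at a time gave 27 to 33 changed members in the mean, 21 to 26 higher and 6 to 8 lower. The share of all genes was not counted for the mean there. Leaving out 1 pair at a time gave 11 to 19 changed members of 55 for BZP and 0 to 4 for TFMPP. For MeOPP it gave 5 to 13 and for MDBP 6 to 17. In those fits 6.76 to 13.3 percent of all genes were called with BZP and 0.661 to 3.24 percent with TFMPP. With MeOPP it was 3.4 to 9.04 percent and with MDBP 3.76 to 11.5 percent. Without the replicate block, 15 members were changed in the mean, 14 higher and 1 lower (8.57 percent of all genes), and 0 with each single drug by limma, where 19 (BZP), 6 (TFMPP), 11 (MeOPP) and 12 (MDBP) had an unadjusted p under 0.05; of all genes at most 0.169 percent were called there with a single drug. With only the 6 arrays of a drug, 6 members were called with BZP, 6 with TFMPP, 8 with MeOPP and, little moved, 13 with MDBP, beside 5.04, 5.11, 6.04 and 6.96 percent of all genes. For TFMPP, the filter on dim probe sets gave 5 and median centring 1, where the share of all genes was not counted. That filter moved the V1 median to 0.33, since it left out 4 dim isoforms. Without preparation 1 the counts were 7 (BZP), 0 (TFMPP), 1 (MeOPP) and 8 (MDBP), and without preparation 2 they were 11 with BZP, 0 with TFMPP and 5 with MeOPP. Without preparation 3 they were 4 with TFMPP and 7 with MDBP, without preparation 4 they were 0 with TFMPP and 6 with MeOPP, and without preparation 5 it was 7 with MDBP. These fits hold fewer arrays, and the share of all genes called moved too. Without preparation 1 it was 9.35 (BZP), 0.703 (TFMPP), 2.72 (MeOPP) and 5.91 (MDBP) percent. Without preparation 2 it was 7.02 (BZP), 1.08 (TFMPP) and 3.46 (MeOPP) percent. Without preparation 3 it was 3.49 (TFMPP) and 4.52 (MDBP) percent. Without preparation 4 it was 0.767 (TFMPP) and 4.46 (MeOPP) percent, and without preparation 5 it was 4.29 percent with MDBP. The 8 base form of the motif was in 5 promoters of members and a 10 base form in 0. Probe sets below a level of 5 (5 members) limit what could be measured there.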
